A study of Homo sapiens with 4 samples.

Results

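Genes for DNA replication and S phase were followed across 4 RNA-Seq libraries of FaDu, an established cell line from a squamous carcinoma of the hypopharynx. The set holds 47 genes out of 62077 rows of the expression table, chosen by gene symbol and by a locus on a main chromosome. All 47 were found and all 47 had a mean of at least 1 FPKM (fragments scaled by exon length and by sequencing depth, so that levels can be compared between genes). The rule that picks them uses symbol and locus only. Each group was 1 library. N-scr held cells with a scrambled control hairpin in normoxia and H-scr held the same control in hypoxia. N-si and H-si held cells labelled TET1-si, in normoxia and in hypoxia. Hypoxia was 1% O2 with 5% CO2 and the balance nitrogen for 19 h, and the normoxic cultures were kept in air with 5% CO2. According to the study's methods the hairpins came from a lentiviral vector with puromycin resistance, so the control cells were infected as well. TET1 oxidizes 5-methylcytosine to 5-hydroxymethylcytosine, and the study asked which genes depend on it when oxygen is low. Since a group was a single library, differences had no replicate spread to be set against and no test was made.

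Before a cell copies its DNA, the origin recognition complex (ORC) marks origins and, with CDC6 and CDT1, loads the ring-shaped MCM2-7 helicase. CDC45 and the GINS complex turn the loaded ring into an active helicase, after which polymerase alpha-primase, polymerases delta and epsilon, the sliding clamp PCNA and its loader RFC copy both strands. Many of these genes are transcribed in late G1 and S phase under control of E2F factors, and their mRNA is low in cells that do not divide.

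The recovered depth was 22500000 to 24500000 reads per library, and the members rested on 145 to 88183 reads each. TET1 itself was near the lower limit, at 0.129 and 0.331 FPKM in N-scr and H-scr, and 0.0493 and 0.122 in N-si and H-si. Its value was lower in the TET1-si library of each oxygen state. All 10 hypoxia targets examined were higher in hypoxia in scrambled and in TET1-si cells. The rise was smaller in TET1-si cells for all 10, with a median difference of -0.82 on the log2 scale. Compared with scrambled cells, 7 of the 10 were higher in TET1-si cells in normoxia and 3 lower. In hypoxia 4 were higher and 6 lower. What this smaller rise means for the results below was not tested. Of 10 epithelial markers, not all of them particular to squamous cells, 10 were at or above 1 FPKM in both scrambled libraries, 8 in N-si and 9 in H-si. Their summed FPKM was 7760 and 10582 in the scrambled libraries (normoxia, hypoxia) but 2754 and 4655 in the TET1-si libraries, and its part in the results below was not tested. The keratins KRT5, KRT8, KRT17 and KRT18 made up most of that sum, whereas CDH1 and EPCAM were higher in TET1-si cells, by 0.57 and 0.41 in normoxia and 0.45 and 0.68 in hypoxia on the log2 scale. The other 8 markers were lower in TET1-si cells in both oxygen states, KRT14 and KRT6A by most and TP63 by least. TP63 differed by -0.27 in normoxia and -0.04 in hypoxia on the log2 scale. KRT14 measured 42.1 and 99.9 FPKM in N-scr and H-scr, and 0.487 and 1.41 in N-si and H-si. KRT6A measured 67.7, 109, 0.394 and 0.357 FPKM in the same order. Fibroblast, leukocyte and endothelial marker sums stayed between 5.30 and 48.4 FPKM. Of the 6 fibroblast markers, 3 or 4 were listed at 0 in each library. COL1A1 and the endothelial marker CDH5 carried most of the fibroblast and endothelial sums, with 37.0 and 45.5 FPKM in H-si.

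The members were lower in hypoxia, and by more in TET1-si cells than in scrambled cells. Their summed level was 4333 and 2884 FPKM in N-scr and H-scr, and 4364 and 1232 in N-si and H-si. The median member stood at 50.6 and 36.9 FPKM in N-scr and H-scr, and 57.5 and 14.6 in N-si and H-si. Both normoxic libraries were therefore close to each other, H-scr was below them and H-si was the lowest. In bulk RNA, fewer cells in S phase and less of these mRNAs per cell cannot be told apart.

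Differences are given as log2(FPKM + 0.1), and a change of 1 on that scale is called 2-fold. Folds printed for single genes are plain ratios of FPKM. In scrambled cells, comparing H-scr with N-scr, 45 of the 47 members were lower in hypoxia, with a median difference of -0.65 against 0.05 over the 15057 genes that had a mean of at least 1 FPKM. At least 2-fold lower were 4 members (ORC1, MCM10, GINS4 and RFC3), beside a background of 4.53% of all genes. No member was 2-fold higher, beside 12.9% of all genes. POLE2 lay just short of the threshold on this scale, at 49.8% of its N-scr value and a plain ratio of 2.01, and without a pseudocount it made 5 members. The exact 95% counting interval of the log2 ratio excluded 0 for 45 members, the exceptions being CCNE1 and CCNE2. Such intervals cover counting error only and say nothing of differences between cultures.

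In TET1-si cells, comparing H-si with N-si, all 47 members were lower in hypoxia, with a median of -1.92 against 0.03 over all genes. At least 2-fold lower were 42 of 47 members, beside 8.66% of all genes, and none was 2-fold higher, beside 12.5%. The 5 members that did not reach 2-fold were ORC2, ORC4, ORC5, RFC1 and CCNE1, and ORC3 lay just inside (49.8% of its N-si value). All 47 counting intervals excluded 0. The 4 members that were 2-fold lower in scrambled cells were 2-fold lower here too, and 38 further members passed 2-fold in TET1-si cells alone. Over all 15057 genes, 353 were 2-fold lower in both and 951 in TET1-si cells alone.

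The difference of hypoxia responses (TET1-si minus scrambled cells) was below 0 for 45 members, with a median of -1.31 against -0.06 over all genes. It was -1 or lower for 37 members, beside 7.86% of all genes, and 1 or higher for none, beside 4.87%. The 2 members above 0 were ORC2 and ORC5, at 0.25 and 0.10. Across the 47 members the hypoxia responses of scrambled and TET1-si cells had a Pearson r of 0.57 and a Spearman rho of 0.56. The 2 responses come from different libraries. This describes genes of these 4 libraries, and genes are not independent replicates.

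**Figure D1:**
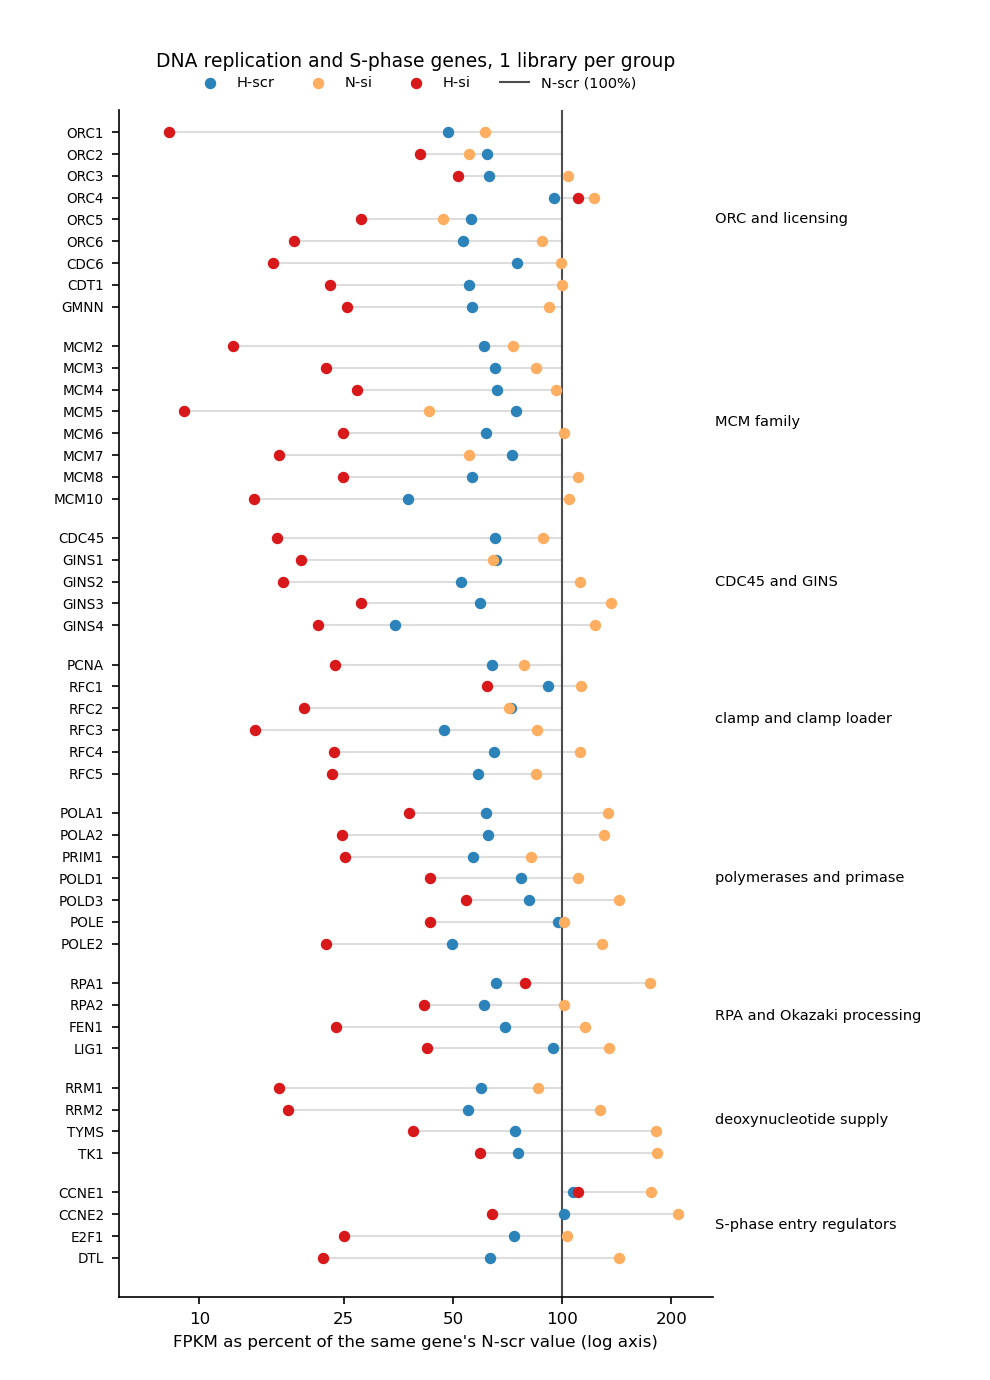
FPKM of each of the 47 members as a percent of the same gene's N-scr value (log axis), with 1 point per library and the genes ordered by role. The H-si point is the leftmost for 44 members, while the N-si points scatter on both sides of the 100% line.

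H-si was the lowest of the 4 libraries for 44 of 47 members, beside 26.9% of all genes. The 3 exceptions were ORC4, RPA1 and CCNE1. At matched hypoxia (H-si against H-scr) 32 members were at least 2-fold lower in TET1-si cells, beside 8.35% of all genes, and none was 2-fold higher, beside 12% of all genes. The median was -1.28 against 0.10 over all genes. In normoxia (N-si against N-scr) the members spread around 0, with 20 below and 27 above it and a median of 0.05, against 0.15 over all genes. The change was above 0 in normoxia and below 0 in hypoxia for 24 of 47 members, beside 13.8% of all genes. At least 2-fold lower in normoxia were MCM5 and ORC5, which is 2 of 47 beside 5.56% of all genes, and 1 member, CCNE2, was 2-fold higher, beside 12.1%. With median-of-ratios scaling, which moved the all-gene median by more than 0.1 (to -0.00), the normoxic split turned to 30 members below and 17 above 0, with 4 members at least 2-fold lower and none 2-fold higher. The split of all genes then went from 5.56% lower and 12.1% higher to 7.41% lower and 9.42% higher. Relative to the all-gene median, the members' normoxic median was -0.10 as deposited and -0.12 with that scaling. MCM5 was the 1 member at least 2-fold lower in TET1-si cells in both oxygen states, and 31 members passed 2-fold in hypoxia alone. Over all 15057 genes, 460 were 2-fold lower in both oxygen states and 798 in hypoxia alone.

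**Figure D2:**
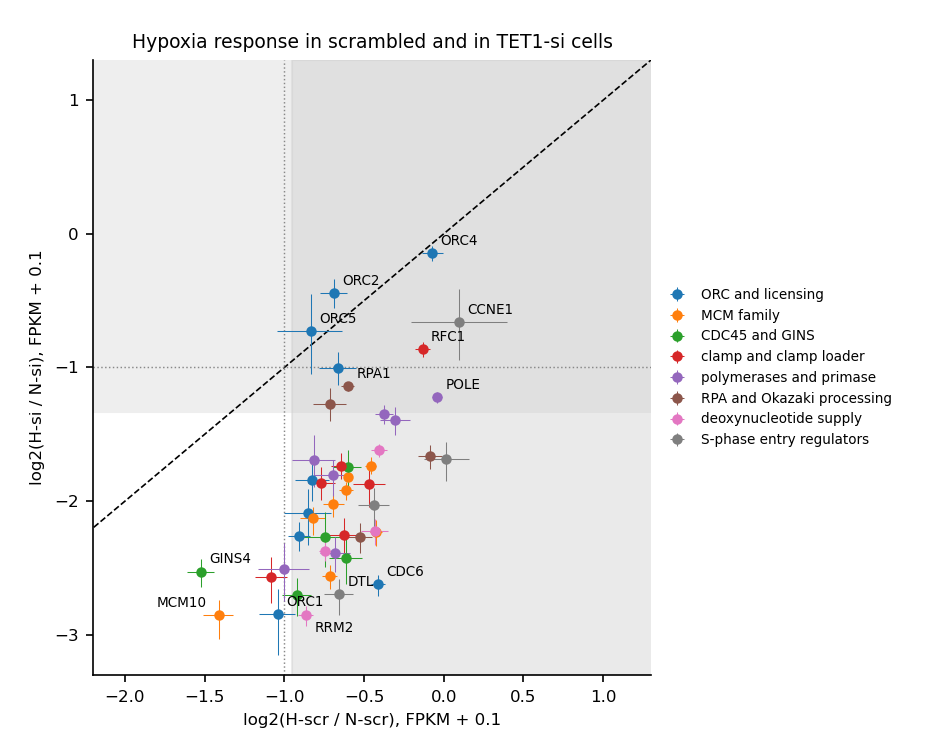
Hypoxia response of each member in scrambled cells (horizontal, log2 of H-scr over N-scr) against TET1-si cells (vertical, log2 of H-si over N-si), coloured by role, with bars for the 95% counting interval. Grey bands run from the 5th to the 95th percentile of all 15057 genes on each axis, dotted lines mark 2-fold lower, and 45 members lie below the dashed line of equal responses, the exceptions being ORC2 and ORC5.

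Short promoter segments show a feature that many of these genes shared. The set was chosen as S-phase genes, many of them under control of E2F factors. The share of E2F letters below is therefore no independent result. RefSeq promoter windows (250 bases before to 50 after the gene start, table build GRCh38.p14) existed in the table for 41 members, and were not in it for MCM4, MCM5, GINS4, POLD3, RPA2 and CCNE2. They were searched on both strands for TTTCCCGC, TTTGGCGC, TTTCGCGC and TTTGCCGC, the letters usually given for E2F sites. TTTCGCGC and TTTGGCGC can overlap the reverse complement of TTTCGCGC, as in MCM2 and MCM6 below. At least 1 match stood in 22 of 41 member windows (53.7%), against 6.72% of the 9137 genes with a window and a mean of at least 1 FPKM and 3.99% of the 27305 genes with a window. In 18 of the 22 the match nearest the start began within 60 bases of it. With only the 250 bases before the start, 16 of 41 windows (39.0%) held a match. The 28 bases around a match are shown for 10 members, from loading factors, helicase, clamp, polymerase, nucleotide supply and regulators, with the matched letters in capitals, 5′ to 3′ on the strand of the gene. Their hg19 positions, from an exact match of each window to the genome, were chr17:38444128-38444155 (CDC6, plus), chr16:88870152-88870179 (CDT1, plus), chr3:127317246-127317273 (MCM2, plus), chr2:136634082-136634109 (MCM6, minus), chr7:99699012-99699039 (MCM7, minus), chr20:5107310-5107337 (PCNA, minus), chr11:65029370-65029397 (POLA2, plus), chr18:657604-657631 (TYMS, plus), chr20:32274194-32274221 (E2F1, minus) and chr1:212209072-212209099 (DTL, plus).
CDC6: gccattcggaTTTGGCGCgagcgcggct
CDT1: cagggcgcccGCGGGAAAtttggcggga
MCM2: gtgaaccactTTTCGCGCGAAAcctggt
MCM6: gtcaggTTTGGCGCGAAAtctccagctc
MCM7: gggggcgacgTTTCGCGCcaatttcggt
PCNA: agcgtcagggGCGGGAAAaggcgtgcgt
POLA2: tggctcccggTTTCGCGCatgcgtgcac
TYMS: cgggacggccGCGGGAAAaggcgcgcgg
E2F1: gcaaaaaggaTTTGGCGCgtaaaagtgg
DTL: gtgacgtcagTTTGGCGCggagtttggc

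The 22 members with a match had a median hypoxia response of -2.06 in TET1-si cells, and 22 of 22 were at least 2-fold lower. The 19 with a window and no match had a median of -1.86, with 14 of 19 at least 2-fold lower. Those short of 2-fold were ORC2, ORC4, ORC5, RFC1 and CCNE1. In scrambled cells the medians were -0.67 with a match and -0.62 without. Between H-si and H-scr the medians were -1.31 with a match and -1.33 without, with 19 of 22 and 11 of 19 at least 2-fold lower. A match is a run of letters and not a measured binding site. ORC1, MCM10 and RRM2, among the members with the lowest H-si values relative to N-si, had a window without these letters.

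Of the 8 role groups, origin licensing held the widest range of hypoxia responses in TET1-si cells. ORC1 (ENSG00000085840, chromosome 1, 52838501 to 52870131), the largest ORC subunit and the one whose abundance changes in the cell cycle, measured 29.0 and 14.1 FPKM in N-scr and H-scr, and 17.8 and 2.39 in N-si and H-si. Its level in H-si was 8.23% of N-scr, the lowest share of any member. ORC6 (ENSG00000091651, chromosome 16, 46723555 to 46732306), the smallest subunit, had the highest level of this group, with 142 and 75.7 FPKM in N-scr and H-scr, and 125 and 26.0 in N-si and H-si. ORC4 (ENSG00000115947, chromosome 2, 148691732 to 148779147) differed least, at 27.2 and 25.9 FPKM in N-scr and H-scr, and 33.4 and 30.2 in N-si and H-si. ORC2 stood at 30.8 and 19.1 FPKM in N-scr and H-scr, and 17.0 and 12.5 in N-si and H-si. ORC5 stood at 13.5, 7.54, 6.31 and 3.77 FPKM in the same order. For both, TET1-si and hypoxia each went with a lower value, and the step from normoxia to hypoxia was no larger in TET1-si cells than in scrambled cells. The counting intervals of the 2 hypoxia responses of ORC5 overlapped, at -1.05 to -0.64 in scrambled and -1.05 to -0.45 in TET1-si cells. The ORC subunits as a set had a median hypoxia response of -0.86 in TET1-si cells, with 3 of 6 at least 2-fold lower, whereas the 41 other members had -2.02, with 39 of 41.

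Among the loading factors, CDC6 (ENSG00000094804, chromosome 17, 38443885 to 38459171), the ATPase that loads MCM rings, showed the lowest difference of hypoxia responses of all members. It measured 92.8 and 69.6 FPKM in N-scr and H-scr, and 92.0 and 14.9 in N-si and H-si. The counting interval of the normoxic difference included 0 (-0.05 to 0.03 on the log2 scale), and the hypoxic value was 1.33-fold lower in scrambled cells and 6.19-fold lower in TET1-si cells. CDT1, its partner, measured 18.3 and 10.1 FPKM in N-scr and H-scr, and 18.3 and 4.21 in N-si and H-si. GMNN encodes geminin, the inhibitor of CDT1, and followed the same order with 78.7, 44.4, 72.3 and 20.1 FPKM. The loader and its inhibitor were thus both lowest in H-si.

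All 8 MCM genes were at least 2-fold lower in hypoxia in TET1-si cells and at least 2-fold lower in H-si than in H-scr. MCM4 (ENSG00000104738, chromosome 8, 48872745 to 48890720), a core subunit of the helicase, had the highest level of all members, with 975 and 643 FPKM in N-scr and H-scr, and 937 and 265 in N-si and H-si. MCM7 (ENSG00000166508, chromosome 7, 99690351 to 99699563) measured 305 and 222 FPKM in N-scr and H-scr, and 169 and 50.6 in N-si and H-si. MCM5 (ENSG00000100297, chromosome 22, 35796056 to 35820495) measured 154 and 115 FPKM in N-scr and H-scr, and 66.3 and 14.0 in N-si and H-si. These last 2 genes were already lower in TET1-si cells in normoxia, by 1.81-fold and 2.33-fold. The fold between the hypoxic libraries was 8.19 for MCM5, larger than for any other member, with a counting interval of -3.13 to -2.94 on the log2 scale.

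MCM2 stood at 137 and 83.3 FPKM in N-scr and H-scr, and 100 and 16.9 in N-si and H-si, MCM3 at 158, 103, 134 and 35.2, and MCM6 at 60.03, 37.1, 60.9 and 14.9. The ring contains 1 copy of each of MCM2 to MCM7, yet their FPKM differed widely. MCM4 made up 54.5% and 53.4% of the summed FPKM of MCM2 to MCM7 in N-scr and H-scr, and 63.9% and 66.8% in N-si and H-si. The share of MCM5 was 8.63%, 9.56%, 4.52% and 3.54% in the same order. The 6 transcripts were thus lower in H-si in unequal measure, and the sum went from 1789 FPKM in N-scr to 397 in H-si. MCM10, a replication factor outside the ring, had the lowest mean hypoxia response of the family, with 31.0 and 11.6 FPKM in N-scr and H-scr, and 32.3 and 4.39 in N-si and H-si. MCM8, which acts mainly in recombination, measured 21.7, 12.2, 23.9 and 5.41 FPKM.

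CDC45 and the 4 GINS genes, which complete the active helicase, were all at least 2-fold lower in hypoxia in TET1-si cells (median -2.42). GINS4 (ENSG00000147536) had the lowest hypoxia response of all members in scrambled cells, and measured 50.6 and 17.6 FPKM in N-scr and H-scr, and 62.4 and 10.8 in N-si and H-si. GINS1 had 36.4 and 24.0 FPKM in N-scr and H-scr, and 23.5 and 6.94 in N-si and H-si. GINS4 was higher in TET1-si cells in normoxia (1.23-fold), and GINS1 was lower there (1.55-fold). GINS2 and GINS3 were 6.58-fold and 4.88-fold lower in hypoxia in TET1-si cells. CDC45 measured 48.0 and 31.4 FPKM in N-scr and H-scr, and 42.6 and 7.87 in N-si and H-si.

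Of the clamp and its loader, PCNA (ENSG00000132646, chromosome 20, 5095599 to 5107272), the ring that holds polymerases on DNA, measured 196 and 125 FPKM in N-scr and H-scr, and 154 and 46.2 in N-si and H-si. RFC3 (ENSG00000133119), a small subunit of the loader, measured 49.0 and 23.1 FPKM in N-scr and H-scr, and 41.9 and 6.97 in N-si and H-si. RFC1, the large subunit, was the member of this group with the smallest hypoxia response, with 62.8 and 57.3 FPKM in N-scr and H-scr, and 70.9 and 38.9 in N-si and H-si. RFC2, RFC4 and RFC5 were at least 2-fold lower in hypoxia in TET1-si cells and not in scrambled cells. Subunits of 1 complex thus ranged from 1.82-fold (RFC1) to 6.01-fold (RFC3) lower in H-si than in N-si.

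The 7 polymerase and primase genes were all at least 2-fold lower in hypoxia in TET1-si cells and none was in scrambled cells on the log2(FPKM + 0.1) scale, POLE2 lying just short. POLE2 (ENSG00000100479, chromosome 14, 50110273 to 50155140), the second subunit of polymerase epsilon, measured 26.7 and 13.3 FPKM in N-scr and H-scr, and 34.4 and 5.97 in N-si and H-si. POLE (ENSG00000177084), the catalytic subunit, measured 94.0 and 91.4 FPKM in N-scr and H-scr, and 94.8 and 40.7 in N-si and H-si. N-scr, H-scr and N-si were thus nearly level and H-si stood apart. The POLE locus in the table spans several neighbours, among them ANKLE2 and PGAM5, and a strand-specific protocol was not stated, so its level may hold reads of other genes. POLA1, POLA2, PRIM1, POLD1 and POLD3 were 1.24-fold to 1.76-fold lower in hypoxia in scrambled cells and 2.55-fold to 5.28-fold lower in TET1-si cells.

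RPA1 (ENSG00000132383, chromosome 17, 1732996 to 1803376), the large subunit of the single-strand binding protein, was the exception of its group, with 108 and 71.1 FPKM in N-scr and H-scr, and 188 and 85.1 in N-si and H-si. It was 1.74-fold higher in TET1-si cells in normoxia and 1.20-fold higher in hypoxia. Within each knockdown state hypoxia still went with the lower value. FEN1, the flap nuclease that trims Okazaki fragments, measured 76.3 and 53.0 FPKM in N-scr and H-scr, and 88.2 and 18.2 in N-si and H-si. The ligase LIG1 measured 45.6, 43.0, 61.6 and 19.4 FPKM, and RPA2 60.6, 36.9, 61.2 and 25.3. FEN1, LIG1 and RPA2 were thus lowest in H-si, and RPA1 in H-scr.

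All 4 genes of deoxynucleotide supply were at least 2-fold lower in hypoxia in TET1-si cells and none in scrambled cells. RRM2 (ENSG00000171848, chromosome 2, 10262455 to 10271545), the regulated small subunit of ribonucleotide reductase, measured 138 and 75.5 FPKM in N-scr and H-scr, and 175 and 24.2 in N-si and H-si, which was 7.25-fold lower in hypoxia in TET1-si cells and 1.82-fold lower in scrambled cells. RRM1, the large subunit, measured 177 and 106 FPKM in N-scr and H-scr, and 152 and 29.2 in N-si and H-si. The thymidine salvage enzyme TK1 (ENSG00000167900, chromosome 17, 76170160 to 76183314) measured 246 and 185 FPKM in N-scr and H-scr, and 447 and 145 in N-si and H-si. TYMS, thymidylate synthase, measured 80.1, 59.4, 145 and 31.0 FPKM. Both thymidine enzymes were thus highest in N-si, at 182% and 181% of N-scr, and still lowest in H-si. The step from N-si to H-si was 3.08-fold for TK1 and 4.69-fold for TYMS.

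Among regulators of S-phase entry, E2F1 (ENSG00000101412, chromosome 20, 32263489 to 32274210), the transcription factor, measured 33.7 and 24.8 FPKM in N-scr and H-scr, and 34.8 and 8.45 in N-si and H-si. DTL (ENSG00000143476), the substrate adaptor through which CDT1 is degraded in S phase, measured 24.9 and 15.8 FPKM in N-scr and H-scr, and 35.8 and 5.44 in N-si and H-si. The E cyclins, which drive CDK2 at the G1/S border, were the only members not lower in hypoxia in scrambled cells. CCNE1 measured 4.34 and 4.64 FPKM in N-scr and H-scr, and 7.65 and 4.80 in N-si and H-si, and CCNE2 measured 13.8, 14.0, 28.8 and 8.89. Neither was lower in H-scr than in N-scr, with counting intervals of -0.21 to 0.40 and -0.13 to 0.16 on the log2 scale. POLE, ORC4 and LIG1 had hypoxia responses nearly as small there, at -0.04, -0.07 and -0.09. Both E cyclins were highest in N-si. In TET1-si cells CCNE1 was 1.59-fold and CCNE2 3.25-fold lower in hypoxia, and CCNE2 was lowest in H-si, as most members were. The CCNE2 locus overlaps INTS8 and NDUFAF6, at mean levels of 118 and 28.2 FPKM. CCNE1 was also the member with the lowest mean level, 5.36 FPKM.

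**Figure D3:**
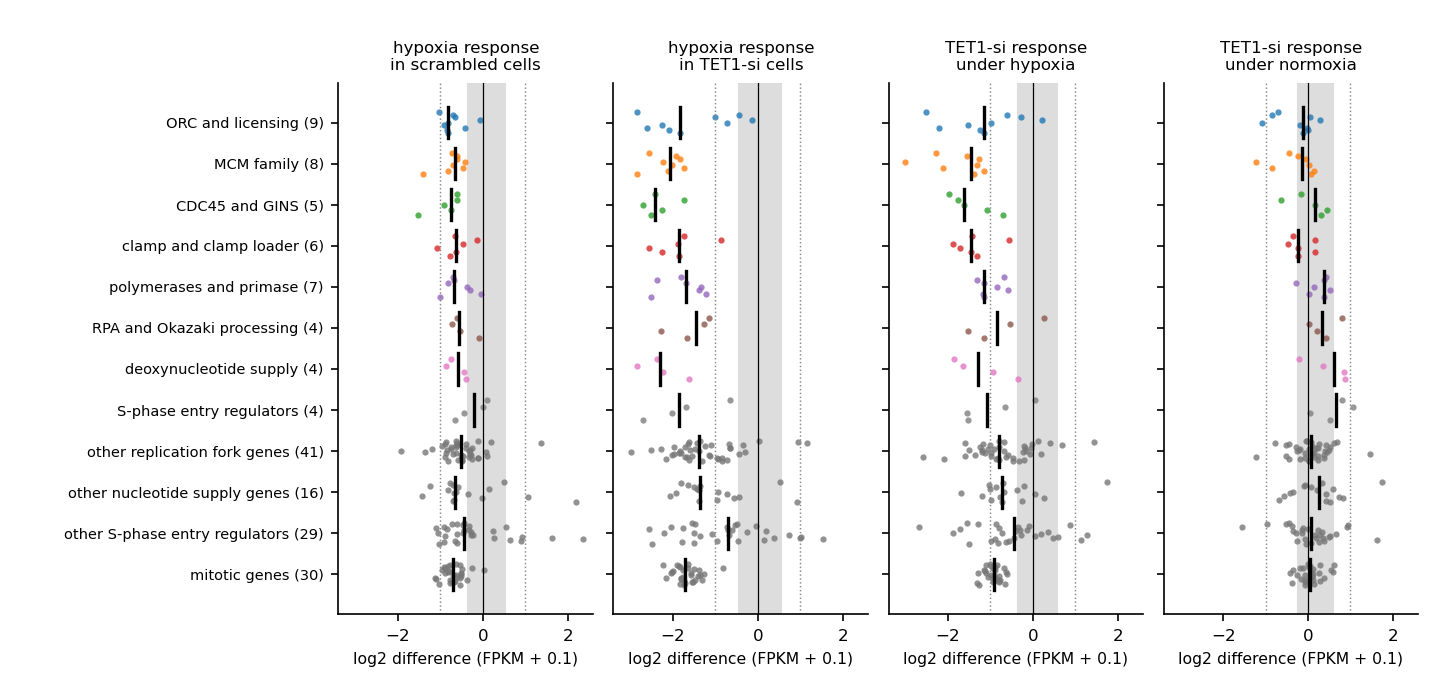
Log2 difference of each gene in the 4 comparisons, by role group of the members (coloured) and for 4 related lists (grey), with the number of genes in brackets, black bars for medians and dotted lines at 2-fold. Grey bands hold the middle 50% of all 15057 genes. The groups lie furthest left in the hypoxia response of TET1-si cells. In the TET1-si response under normoxia the role group medians run from -0.23 (clamp and clamp loader) to 0.66 (S-phase entry regulators).

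Related genes outside the set were described by count. Over all genes, 8.66% were at least 2-fold lower in hypoxia in TET1-si cells and 4.53% in scrambled cells. Of 41 other replication fork genes, 27 were at least 2-fold lower in hypoxia in TET1-si cells (median -1.40) and 3 in scrambled cells (median -0.51), these being TIPIN, DSCC1 and WDHD1. POLD4, the small accessory subunit of polymerase delta, was 2-fold higher in both, with 42.9 and 111 FPKM in N-scr and H-scr, and 65.5 and 145 in N-si and H-si. TICRR, a factor for CDC45 loading, was the 1 gene of that list at least 2-fold lower in TET1-si cells in both oxygen states. Of 16 other nucleotide supply genes, 9 were at least 2-fold lower in hypoxia in TET1-si cells (median -1.37) and 2 in scrambled cells. NME1 and DCTPP1 were lower in both. In scrambled cells 2 of the 16 were at least 2-fold higher in hypoxia, beside 12.9% of all genes. TYMP was higher by 2.19 and SAMHD1 by 1.07 on the log2 scale, with TYMP at only 0.758 FPKM in N-scr. RRM2B, the ribonucleotide reductase subunit that serves cells outside S phase, was higher with TET1-si, by more than 2-fold in normoxia and in hypoxia alike, with 25.9 and 36.9 FPKM in N-scr and H-scr, and 86.4 and 124 in N-si and H-si. Its hypoxia response was 0.51 in scrambled and 0.52 in TET1-si cells on the log2 scale.

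Of 29 other regulators of S-phase entry, 12 were at least 2-fold lower in hypoxia in TET1-si cells (median -0.69), beside 8.66% of all genes. At least 2-fold higher were 3 of the 29, beside 12.5%. In scrambled cells 3 were at least 2-fold lower and 2 higher, beside 4.53% and 12.9% of all genes. MYBL2, CDC25A and E2F8, which promote cell cycle progression or are themselves E2F targets, were 2-fold lower in both knockdown states. Of the CDK inhibitors in the list, CDKN1A and CDKN1C were 2-fold higher in both, as were 1013 of 15057 genes. CDKN1C was low, with 0.387 and 2.40 FPKM in N-scr and H-scr, and 0.364 and 1.24 in N-si and H-si. CDKN1B, CDKN2C and CDKN2D did not reach 2-fold, at 0.26, 0.63 and 0.91 in scrambled cells. In TET1-si cells they were at 0.38, 0.15 and -0.47. CDKN1A measured 8.22 and 25.6 FPKM in N-scr and H-scr, and 9.35 and 18.9 in N-si and H-si, so the larger value in hypoxia was in scrambled cells. CDKN2C was 2-fold higher in TET1-si cells in both oxygen states, and CCNA2 was 2-fold lower, with 64.6 and 34.1 FPKM in N-scr and H-scr, and 22.0 and 5.22 in N-si and H-si.

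Mitotic genes, which act after replication, gave a similar picture with a smaller gap between the hypoxic libraries. Of 30, 29 were at least 2-fold lower in hypoxia in TET1-si cells (median -1.72) and 3 in scrambled cells (median -0.69), these being MAD2L1, NUF2 and UBE2C. Over all genes these shares were 8.66% and 4.53%. H-si was the lowest library for 30 of 30, beside 26.9% of all genes. Between H-si and H-scr, 9 of 30 mitotic genes were at least 2-fold lower (median -0.91), against 32 of 47 members (median -1.28). The share over all genes was 8.35%. The median difference of hypoxia responses was -0.95 for mitotic genes and -1.31 for members. No test of that gap was made.

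The position of a member on its chromosome went with its TET1-si response in normoxia. For each member the median change of up to 50 neighbours (25 on either side, with a mean of at least 1 FPKM) was computed. Over the 47 members the normoxic TET1-si change and the neighbours' median had a Pearson r of 0.73 and a Spearman rho of 0.68. MCM5 changed by -1.22 and its neighbours on chromosome 22 by a median of -0.57, ORC2 by -0.85 and its neighbours by -0.57, RPA1 by 0.80 and its neighbours by 0.62, and TK1 by 0.86 and its neighbours by 0.64. Departures included CCNE2, at 1.05 with neighbours at 0.14, ORC5, at -1.08 with neighbours at -0.24, and CCNE1, at 0.80 with neighbours at 0.05. MCM7 (-0.85), ORC1 (-0.70) and GINS1 (-0.63) likewise had neighbours nearer 0, at -0.18, -0.05 and -0.04. In hypoxia the same correlation of the TET1-si response was 0.36 (rho 0.24). The hypoxia response had 0.19 in scrambled cells (rho 0.30) and -0.11 in TET1-si cells (rho -0.05). The neighbours' medians of the hypoxia response in TET1-si cells were between -0.27 and 0.36, while the members were between -2.85 and -0.15. These are descriptions over genes that share libraries, and neighbours of nearby members overlap. Neighbours could include genes that overlap a member and share its reads. The same correlation over all genes was not computed.

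**Figure D4:**
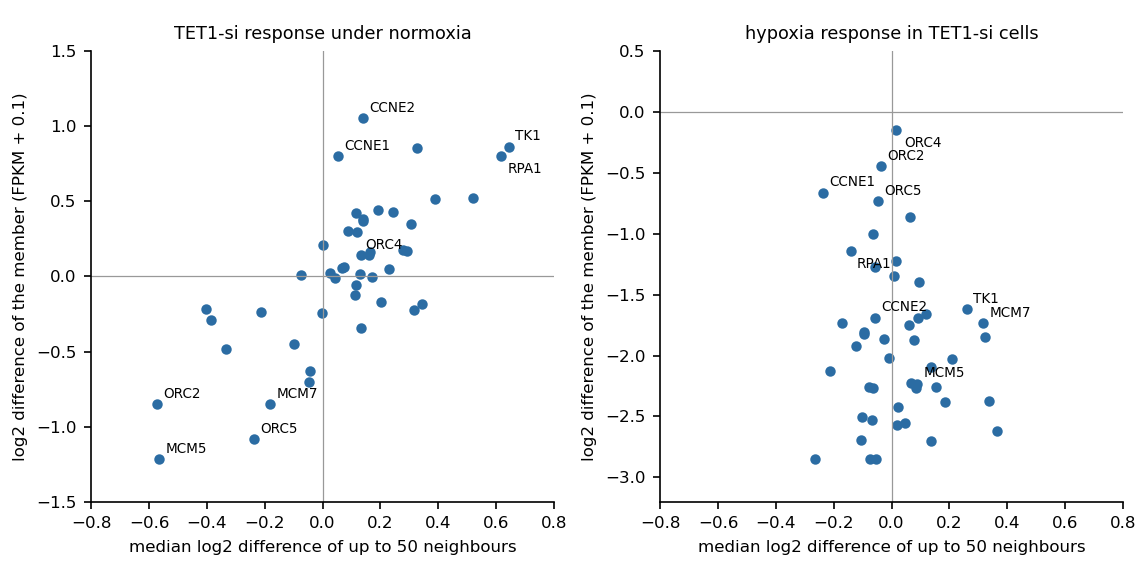
Log2 difference of each of the 47 members (vertical) against the median of up to 50 neighbouring genes (horizontal), for the TET1-si response under normoxia on the left and the hypoxia response in TET1-si cells on the right. The points follow a slope on the left (r = 0.73) and form no slope on the right (r = -0.11).

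The study selected TET1-dependent genes by 3 inequalities on FPKM, asking that H-scr exceed H-si more than 2-fold, that H-scr exceed N-scr, and that N-si not exceed N-scr. Of all 62077 rows, 2687 (4.33%) met these inequalities and none of the 47 members did. The rows were not filtered by level, and 22756 to 24453 of them were above 0 in a library. All 47 members had a mean of at least 1 FPKM, so this share is no matched background for them. The share over the 15057 genes used elsewhere is not given here. The study reports fewer genes by the same inequalities, so its list was not reproduced. The reason was not tested. The first inequality held for 32 members and the last for 20, with 18 meeting both. The middle inequality, a higher value in hypoxia in control cells, held for CCNE1 and CCNE2 alone. None of the members met the mirrored inequalities either.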

How the data were processed

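RNA was sequenced in 4 FaDu libraries, 1 per group. The values are FPKM as deposited by the authors, who used TruSeq mRNA libraries, a HiSeq instrument and reads of 100 bases, then TopHat and Cufflinks with Ensembl annotation on hg19. Versions are not given in the sources used here, and neither is strand. The labels call the reads single end and the study's methods call them paired end. Normalization by exon length and depth sets each gene relative to the rest of its library.

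Groups came from sample titles. The members and gene lists were chosen with earlier results of these data known. Differences used a pseudocount of 0.1, genes on a main chromosome with a mean of at least 1 FPKM, and a 2-fold call. FPKM were not tested as counts. Gene IDs on more than 1 row (111) were left out, as was 1 further row of RFC2, on a patch sequence. Depth was recovered from single-exon genes of at least 600 bases, where 95.3% to 96.8% of low values were whole reads within 0.05. Reads per gene were then approximate and gave exact (Clopper-Pearson) 95% intervals for counting error only. Both steps were checked on simulated data.

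Of the members, 14 overlap another gene whose level is above 10% of theirs (ORC2, ORC4, MCM2, GINS2, GINS4, RFC4, RFC5, POLA1, PRIM1, POLE, RPA1, FEN1, TYMS and CCNE2), and shared reads could not be separated. The overlapping gene had a far higher mean level for PRIM1 (NACA, 1177 against 27.9 FPKM) and RFC4 (EIF4A2, 518 against 66.2). The same held for CCNE2 (INTS8, 118 against 16.4) and FEN1 (C11orf10, 153 against 58.9). The locus of POLE in the table extends beyond its gene model in GENCODE v44lift37. Each member was named in its role group, with full values for the lowest and highest hypoxia response and highest level per group, for the 3 extremes of the TET1-si response and of the difference of hypoxia responses, and for any counted group of 5 or fewer. Of the other lists, UHRF1, TK2 and PECAM1 were not analysed here. Alternatives were other pseudocounts, filters, scalings and thresholds. Python 3.11.15, pandas 2.3.3, numpy 2.4.6, SciPy 1.17.1 and matplotlib 3.10.9 were used.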

Additional observations from a re-analysis of the deposited data

Results flagged for a closer look

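For 18 members the TET1-si response had opposite signs in the 2 oxygen states, higher in N-si than in N-scr and lower in H-si than in H-scr, with both counting intervals excluding 0. The same signs, whatever the intervals, were seen in 24 of 47 members and in 13.8% of 15057 genes. With median-of-ratios scaling 14 of the 18 kept both signs, and MCM8, GINS2, RFC4 and POLD1 fell just below 0 in normoxia. With upper-quartile scaling or rescaling to TPM all 18 kept them. The differences were not tested, since each group had 1 library. The gap between the 2 responses (hypoxia less normoxia, log2 scale) was -2.04 for DTL, -1.99 for RRM2, -1.79 for TYMS, -1.78 for GINS2, -1.75 for FEN1, -1.70 for POLA2 and -1.70 for CCNE2. It was -1.63 for RFC4, -1.58 for LIG1, -1.52 for GINS3, -1.51 for POLE2, -1.31 for MCM8 and -1.21 for TK1. The smaller gaps were -1.11 for POLA1, -1.09 for POLD3, -1.005 for GINS4, -0.98 for POLD1 and -0.73 for RFC1.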

How the results depend on the processing

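No paired analysis was possible because each group had 1 library. Of 118 recomputed list values, 104 stayed within the members' median counting error or, for counts, within 1.5 times. Among the 104, those with no filter on low values (15) or a mean of at least 5 FPKM (15) could not change, since all members passed. The same held for 1 value with a mean of at least 1 FPKM. Of 480 recomputed values of named members, 335 stayed within their own counting error. The median hypoxia response went to -1.80 in TET1-si cells with upper-quartile scaling, and with rescaling to TPM to -1.78 in TET1-si and -0.54 in scrambled cells, where 2 members were then 2-fold lower. With median-of-ratios scaling the TET1-si medians were -1.40 (hypoxia) and -0.12 (normoxia), with 4 members 2-fold lower and 0 higher in normoxia. Upper-quartile scaling gave -0.073 and 0 higher there, and a pseudocount of 1 left 1 lower. At a 1.5-fold threshold 31 members were lower in hypoxia in scrambled cells (13.7% of all genes), and in normoxia 6 were lower and 5 higher in TET1-si cells (12.0% and 24.7% of all genes). The cause was not tested, except that a scaling shifts all genes of a library alike and a lower threshold admits more genes. The normoxic TET1-si change took the other sign for 10 members with median-of-ratios scaling (ORC3, MCM6, MCM8, MCM10, GINS2, RFC4, POLD1, POLE, RPA2 and E2F1), 6 with upper-quartile scaling and 2 with TPM (CDC6 and CDT1), the TET1-si change under hypoxia for CCNE1, and the hypoxia response of scrambled cells for CCNE2, POLE, ORC4 and LIG1 in at least 1 scaling, all within 0.17 of 0 as deposited. Depth limited single members little, since the median counting interval was 0.07 to 0.12 on either side. The limit is the single library per group, which leaves the spread between cultures unknown.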
